A study of Danio rerio with 4 samples.

Results

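The genes described here encode enzymes that oxidise or reduce alcohols, aldehydes, ketones and steroids with a nicotinamide cofactor. They were taken from the deposited expression table by symbol, as the aldehyde dehydrogenases (aldh), alcohol dehydrogenases (adh), aldo-keto reductases (akr), retinol dehydrogenases (rdh), short-chain dehydrogenases named dhrs, and hydroxysteroid dehydrogenases (hsd). The rule reads symbols and no values, but was chosen with earlier results of these data known. It gave 61 of the 11021 genes in the table. The study compared larval zebrafish livers, taken 5 days after fertilisation (5 dpf), that carry Tg(fabp10:has.UHRF1-GFP) and are labelled as high with age-matched livers that carry Tg(fabp10:nls-mCherry), with 2 libraries in each group. The first transgene places human UHRF1 fused to GFP, and the second nuclear mCherry, under the hepatocyte promoter of fabp10, so cells other than hepatocytes are not the target of either transgene. UHRF1 is a chromatin protein needed for the maintenance of DNA methylation. Value columns for the 2 UHRF1-high libraries, A and B, were analysed, and the mCherry libraries were not analysed here. No value below is a change against mCherry livers, and with 1 group no test was made: the text gives levels and the spread between A and B. Whether A and B were separate clutches, and how many livers went into each, is not in the labels.

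In liver, these families work in chains. Alcohol dehydrogenases turn an alcohol into an aldehyde, and aldehyde dehydrogenases turn the aldehyde into an acid, the route by which ethanol becomes acetate and retinol becomes retinoic acid. Other aldehyde dehydrogenases finish the breakdown of single amino acids in mitochondria, aldo-keto reductases return reactive aldehydes to alcohols, and hydroxysteroid dehydrogenases switch steroids between more and less active forms or act on bile acid precursors and fatty acyl chains.

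The authors quantile-normalised the values, a step that makes the libraries share 1 distribution, so that a value stands for the rank of its gene. The median gene stood at 4.36 in A and at 4.41 in B. Sequencing depth is unknown, and no counting error can be given. No source used here says if transcript length was divided out. An order of levels between genes can therefore reflect gene length, but a single gene set in A against B is free of it. The lowest values are tied: in A 694 genes share 0.0203, and in B 449 are listed at 0. Liver genes were present at high rank, with fabp10a at rank 3 in both libraries. The 2 libraries also differed in markers of other cells. The summed value of 15 exocrine pancreas markers was 11616 in A and 1351 in B, and that of 20 skeletal muscle markers was 482 in A and 4280 in B. Among 11 hepatocyte markers, the transferrin gene tfa had 12758 in A and 2207 in B, and the retinol carrier gene rbp4 had 1673 and 342. At least 2-fold higher were 4 of the 11 in A and 0 in B. By any size, 5 were higher in A and 3 in B, among the latter cp with 34.1 in A and 63.8 in B. The median difference of the 11 markers, 0, comes from genes such as apoa1b, apoa2 and fabp10a, whose top ranks fix the same value in both libraries. In whole livers, fewer cells of a type and less RNA per cell cannot be told apart.

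The dehydrogenase and reductase genes had mean values from 733, rank 188 of all genes, down to 0.0101. Their median stood at percentile 79.4 of library A and 78.5 of library B. Of the 61 genes, 22 in A and 17 in B lay above percentile 90, or 36.1% and 27.9%, against 10% of all genes by construction. Of these, 16 did so in both libraries. Their values summed to 5763 in A and 4317 in B, 0.670% and 0.502% of all values. By mean value, the 4 aldo-keto reductases and the aldehyde dehydrogenases held the highest places, with family medians at percentile 91.0 and 90.7. The 3 alcohol dehydrogenases had a median at 88.2, the retinol dehydrogenases at 74.8, the dhrs genes at 62.1 and the hydroxysteroid dehydrogenases at 54.2. Library A alone gave the same order, but B did not. In B the aldehyde dehydrogenases (89.6) and alcohol dehydrogenases (88.8) stood above the aldo-keto reductases (88.6). The hydroxysteroid dehydrogenases stood above the dhrs genes there.

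**Figure D1:**
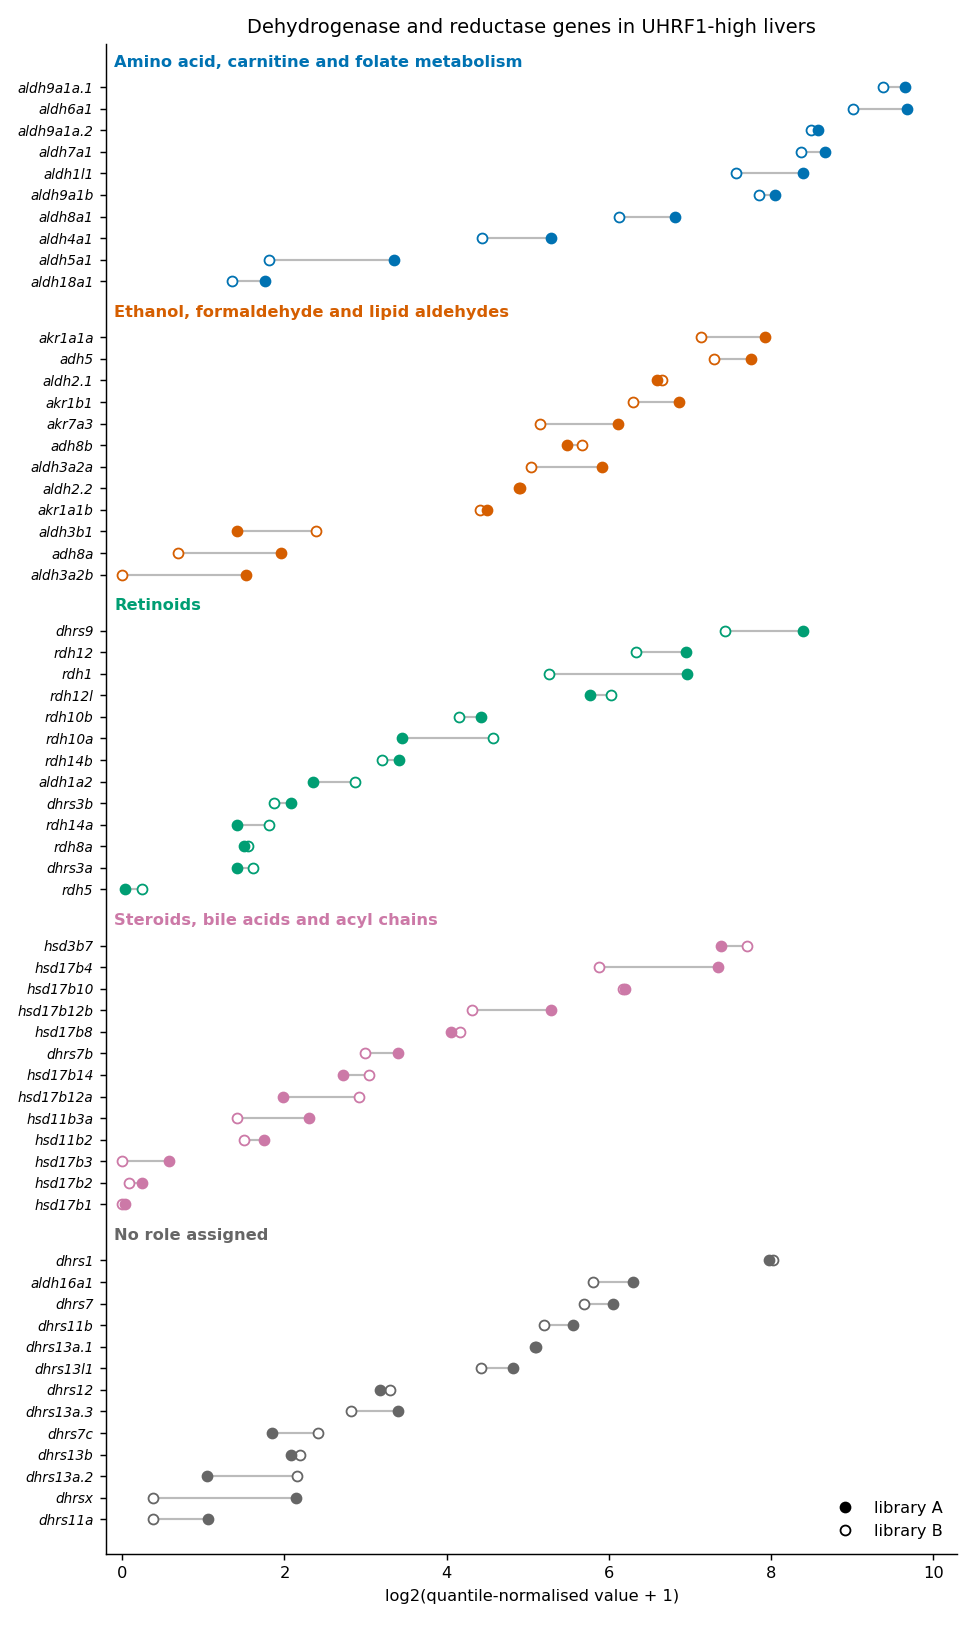
Value of each of the 61 genes in UHRF1-high library A (filled) and B (open) on the log2(quantile-normalised value + 1) scale, grouped by the role of the enzyme and sorted by the mean. All 10 genes of amino acid, carnitine and folate metabolism lie higher in A, while the retinoid genes differ in both directions.

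Differences between the libraries were taken as log2(value + 1) in A minus that in B, where the added 1 shrinks the differences of low genes. They cover the 55 genes whose mean value reached 1, and the other 6 are given by their values at the end. A gene is called different here when it differs by at least 2-fold on this scale. By that rule 5 of the 55 genes were higher in A, or 9.09%, against 7.07% of all 8386 genes above the same filter. In the other direction 2 were higher in B, or 3.64%, against 6.83% of all genes. With so few genes, these shares lie near those of the table as a whole. The remaining 48 differed by less than 2-fold, and in 21 of the 55 the lower value was within 20% of the higher. By direction alone, 37 of 55 were higher in A, or 67.3%, against 48.6% of all genes, and the median difference was 0.27, against -0.02 for all genes. Of the hepatocyte markers, 4 of 11, or 36.4%, were at least 2-fold higher in A and 0 in B. By any size, 5 of them were higher in A and 3 in B. Among other cell types, 13 of 14 exocrine pancreas markers above the filter stood higher in A. The exception, ela2l, had 4.02 in A and 36.4 in B, a difference of -2.90. Of the 4 intestine markers above the filter, 2 were higher in A and 2 in B. The 8 measured summed to 2728 and 1453, nearly all from apoa4, with 2588 in A and 1273 in B. The next highest, fabp2, had 115 in A and 151 in B. Higher in B were 18 of 18 skeletal muscle markers, 10 of 12 skin markers (summed value 285 in A and 726 in B), 7 of 7 leukocyte markers (30.7 and 110) and 5 of 6 biliary markers (3054 and 5354). Their part in the difference of the enzymes was not tested. Of the 13 genes whose mean reached 100, 11 were higher in A. The same held for 16 of the 21 genes with a mean between 10 and 100, and for 10 of the 21 with a mean between 1 and 10. At a mean of at least 10, 27 of 34 were higher in A, against 46.8% of all 3733 genes at that level. Shares of all genes within the single bands were not computed. By family, the median difference was 0.68 for 4 aldo-keto reductases, 0.45 for 3 alcohol dehydrogenases, 0.35 for 16 aldehyde dehydrogenases and 0.22 for 15 dhrs genes. It was 0.08 for 8 retinol dehydrogenases and 0.02 for 9 hydroxysteroid dehydrogenases, and the direction of these last values turned without the filter for the retinol dehydrogenases and without hsd11b3a for the hydroxysteroid dehydrogenases.

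**Figure D2:**
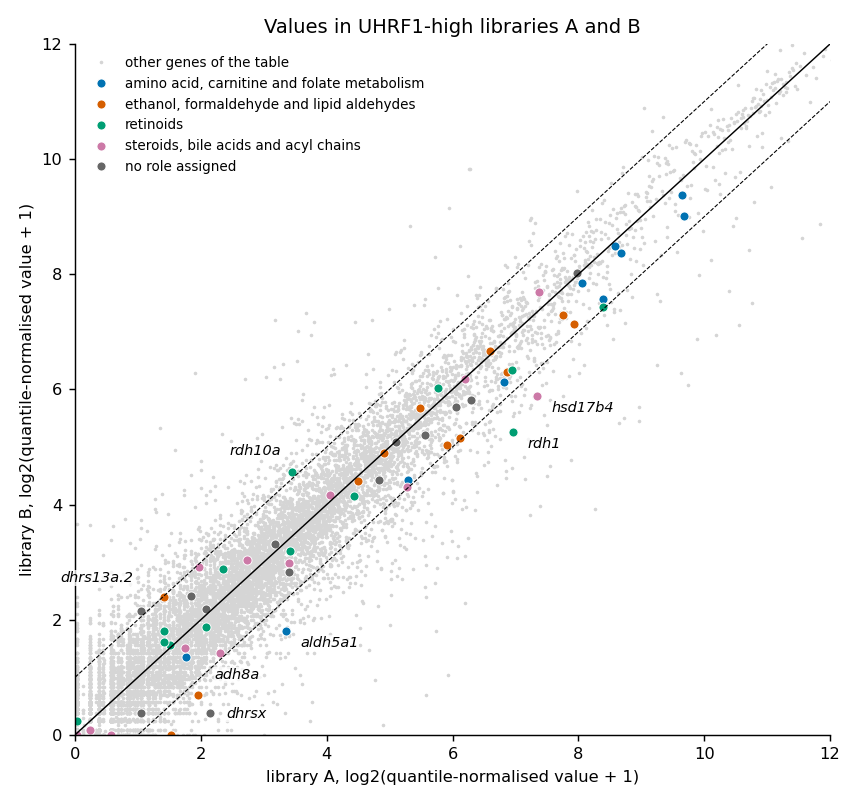
Each point is a gene, with its value in UHRF1-high library A on the horizontal and library B on the vertical axis, both log2(quantile-normalised value + 1). The solid line marks equal values and the dashed lines 2-fold; the 5 genes named below the lower line and the 2 named above the upper line are those at least 2-fold apart, and genes beyond the axes are not drawn.

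The genes of amino acid, carnitine and folate metabolism had the highest levels and were all higher in A, against 48.6% of all genes. This set of 10, like the other role groups below, was assembled with earlier results of these data known, so its shared direction is a description only. The median difference was 0.54, with a range of 0.08 to 1.54. The highest was aldh9a1a.1, with 802 in A and 663 in B (mean 733 ± 98.3, SD, n = 2, the form used for all means below). Its neighbour aldh9a1a.2 had 380 and 359, and aldh9a1b had 265 and 229. ALDH9A1 in mammals oxidises the trimethylated aldehyde on the way to carnitine. The 3 zebrafish copies stood at unlike levels but differed little between A and B, by 0.27, 0.08 and 0.21. The gene aldh6a1, for the mitochondrial enzyme that ends valine and thymine breakdown, had 821 in A and 516 in B (668 ± 216). The lysine breakdown gene aldh7a1 had 407 and 330. The folate enzyme gene aldh1l1, whose product removes one-carbon units as carbon dioxide, had 335 and 189. These 3 differed by 0.67, 0.30 and 0.82.

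Lower in the same group, aldh8a1, whose human enzyme works in the kynurenine pathway of tryptophan breakdown, had 111 in A and 68.9 in B. The proline breakdown gene aldh4a1 had 38.2 and 20.6. The gene with the largest difference was aldh5a1, for the succinate semialdehyde dehydrogenase that ends breakdown of the transmitter GABA. It had 9.16 in A and 2.51 in B (5.83 ± 4.71), a difference of 1.54, and ranked 3860th and 6670th. With a pseudocount of 10 the difference was 0.62, under 2-fold. On Zv9 it lies on chromosome 16 from 38351065 to 38359237. The gene aldh18a1, for the enzyme that makes rather than degrades the proline precursor, was the lowest of the group, with 2.38 and 1.56. It stood below the median gene in both libraries, as aldh5a1 did in B.

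The enzymes of ethanol, formaldehyde and lipid aldehydes were led by akr1a1a, for an aldehyde reductase, with 242 in A and 140 in B (191 ± 72.3). The gene adh5, whose enzyme oxidises the glutathione adduct of formaldehyde, followed with 214 and 156 (185 ± 40.9). The aldose reductase gene akr1b1 had 115 and 77.5. The gene akr7a3, of the aflatoxin aldehyde reductase family, had 68.2 and 34.6, and its difference of 0.96 lay just short of 2-fold. All 4 aldo-keto reductase genes were higher in A, against 48.6% of all genes, by a median of 0.68. The lowest of them, akr1a1b, hardly differed, with 21.6 in A and 20.2 in B, a difference of 0.09. The fatty aldehyde dehydrogenase gene aldh3a2a had 59.15 and 31.8, a difference of 0.88. Its copy aldh3a2b had 1.87 in A; in B it was listed at 0, so no fold is given.

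The acetaldehyde dehydrogenase genes hardly differed between the libraries. The gene aldh2.1 had 96.0 in A and 100.03 in B (98.0 ± 2.85), and aldh2.2 had 28.9 and 28.7 (28.8 ± 0.144). Their spans on chromosome 5 overlap by 70564 bases in the table (Zv9, together 72440798 to 72561487), so reads could be split between them and their separate levels are uncertain. Of the alcohol dehydrogenases, adh8b had 43.7 in A and 49.9 in B. The gene adh8a, 7.22 kb away on chromosome 13 (12523139 to 12529456), had 2.88 and 0.609, a difference of 1.27. The neighbours thus differed in direction, but with a pseudocount of 10 the difference of adh8a was 0.28, under 2-fold. In the other direction aldh3b1, for an enzyme of lipid aldehydes in humans, had 1.67 in A and 4.24 in B, a difference of -0.97 (-1.29, past 2-fold, with a pseudocount of 0.1).

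The retinoid enzymes divided by direction, with 6 of the 12 above the filter higher in each library and a median difference of 0.08. The highest were dhrs9, rdh12 and rdh1, and these were higher in A. The gene rdh1 had 123 in A and 37.2 in B (80.3 ± 60.9), ranks of 646 and 1539, and a difference of 1.701. It is named for retinol dehydrogenase, the enzyme that makes retinal from retinol. The gene dhrs9, for an enzyme of retinol and 3-hydroxysteroids in humans, had 336 and 172 (254 ± 116), a difference of 0.97. These genes are neighbours on chromosome 9, with rdh1 from 49727476 to 49748154 and dhrs9 starting 5.20 kb further on. The gene rdh12, whose human product reduces retinal, had 123 and 79.6, while the related rdh12l had 53.7 in A and 64.0 in B.

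Of the genes of embryonic retinoic acid synthesis, rdh10a and aldh1a2 stood higher in B. The gene rdh10a, for a retinol dehydrogenase that starts retinoic acid synthesis in vertebrate embryos, had 9.90 in A and 22.8 in B (16.3 ± 9.09), a difference of -1.12 (-0.72, under 2-fold, with a pseudocount of 10). It lies on chromosome 24 from 13155616 to 13177006. The copy rdh10b had 20.5 and 16.8, a difference of 0.27 the other way. The gene aldh1a2, whose enzyme makes retinoic acid from retinal, had 4.12 in A and 6.32 in B. The genes dhrs3a and dhrs3b, for enzymes that return retinal to retinol, were low as well. The first had 1.67 in A and 2.06 in B, and the second 3.24 and 2.65. Of other retinal reductase genes, rdh14b had 9.63 and 8.18, above the median gene of each library. Below it were rdh14a with 1.67 and 2.51, and the photoreceptor enzyme gene rdh8a with 1.83 and 1.94. Among the 12 retinoid enzyme genes above the filter, rdh10a was the only one at least 2-fold higher in B, and rdh1 the only one in A. In each direction this is 8.33%, near the 6.83% (B) and 7.07% (A) of all genes.

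Other genes of retinoid handling came from a list of carriers, receptors, esterifying and degrading enzymes. The list had 21 measured genes of 39 listed, 15 of them above the filter. Of the 15, 11 (73.3%) were higher in A, against 48.6% of all genes, and 4 in B. The median was 0.54, against -0.02 for all genes. At least 2-fold higher were 2 in A and 2 in B, 13.3% each, against 7.07% and 6.83% of all genes. The intracellular retinol binding gene rbp2b had 1444 in A and 821 in B, while its copy rbp2a had 42.5 and 87.8. With rbp4, the receptor gene rarab was at least 2-fold higher in A (4.77 and 1.79), and with rbp2a, the retinoic acid binding gene crabp2b was at least 2-fold higher in B (0.304 and 1.79). The hepatocyte product rbp4 thus had the largest difference on the list, at 2.29, larger than that of rdh1.

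Among the enzymes of steroids, bile acids and acyl chains, hsd17b4 differed most. It encodes a bifunctional peroxisomal enzyme that shortens very long fatty acids and bile acid side chains. It had 162 in A and 58.0 in B (110 ± 73.3), ranks of 528 and 1109, and a difference of 1.46. The gene lies on chromosome 8 from 397562 to 421328. The gene hsd3b7, for the enzyme that remodels the sterol ring in bile acid synthesis, was higher in B, with 166 in A and 207 in B (186 ± 29.1) and a difference of -0.32. The 2 highest genes of this group thus differed in opposite directions between the same libraries. The mitochondrial gene hsd17b10, for an enzyme of isoleucine breakdown and of transfer RNA processing, had 72.7 and 71.6 (72.2 ± 0.822). The gene hsd17b8, for a subunit in mitochondrial fatty acid synthesis, had 15.6 and 16.98.

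The elongation enzyme HSD17B12 reduces the keto group as fatty acyl chains grow, and zebrafish have a pair of genes for it. The gene hsd17b12b had 37.9 in A and 18.8 in B, a difference of 0.97, and hsd17b12a had 2.93 and 6.57, a difference of -0.94. The pair thus differed in opposite directions. Whether each reaches 2-fold depends on the pseudocount. The plain ratios are 2.01 (A over B) and 2.24 (B over A). With a pseudocount of 0.1 the differences are 1.004 and -1.14, and with one of 10 they are 0.73 and -0.36, under 2-fold. The peroxisomal gene dhrs7b, of ether lipid synthesis in mammals, had 9.57 and 6.94, and hsd17b14 had 5.61 and 7.22. The cortisol-inactivating gene hsd11b2 had 2.36 and 1.83, below the median gene of each library. The gene hsd11b3a had 3.95 and 1.67 (a difference of 0.89, and 1.19 with a pseudocount of 0.1), but its span in the table is 72 bases (chromosome 22, 19871700 to 19871771), so this value may not stand for a whole transcript.

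The list of bile acid synthesis genes without members of the families above had 8 measured genes of 25 listed. All 8 were higher in A, against 48.6% of all genes, with a median of 1.02. By at least 2-fold, 4 (50%) were higher in A, against 7.07% of all genes. The list, like the other lists here, was chosen with earlier results of these data known, so these shares are a description only. The sterol carrier gene scp2a had 349 in A and 137 in B, and the acyl-CoA synthetase gene slc27a2a had 103 and 75.8. The sterol hydroxylase gene cyp8b1.1, listed under the older symbol zgc:92406, had 65.0 and 16.1, and cyp8b3 had 7.38 and 0.651. The racemase gene amacr, listed under the older symbol c1qtnf3, had 13.6 and 5.21. Beside these, hsd17b4 was higher in A and hsd3b7 was not. The list of steroid hormone genes had 9 genes above the filter. In A, 5 were higher (55.6%, against 48.6% of all genes), and in B 4. By at least 2-fold, 2 were higher in A (22.2% of the 9, against 7.07% of all genes). The 2 were the steroid reductase gene srd5a2a (136 and 51.8) and the sulfotransferase gene sult2st2 (56.9 and 17.3).

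A further group of 13 genes, mostly short-chain dehydrogenases with less settled functions, had 12 above the filter and a median difference of 0.19. The highest, dhrs1, had 250.4 in A and 259 in B (255 ± 6.05). The gene aldh16a1 had 77.7 and 55.1, dhrs7 had 65.3 and 50.9, and dhrs11b had 46.2 and 35.7. None of these reached 2-fold. The gene dhrsx, whose human enzyme works in dolichol synthesis, had 3.40 in A and 0.305 in B, a difference of 1.76. That size rests on the low value in B: it is 3.11 with a pseudocount of 0.1 and 0.38, under 2-fold, with one of 10. The gene spans chromosome 1 from 33067083 to 33151178. The gene dhrs7c, which in mouse is known from the calcium store of muscle fibres, had 2.59 in A and 4.34 in B. Skeletal muscle markers were higher in B in 18 of 18 cases above the filter, by a median of -3.29, and their part in the dhrs7c value was not tested.

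The dhrs13 genes differed among themselves. The gene dhrs13a.1 had 33.5 in A and 33.1 in B, while dhrs13a.2, 2.55 kb away on chromosome 10 (38118053 to 38126741), had 1.06 and 3.45, a difference of -1.11 (-0.28, under 2-fold, with a pseudocount of 10). The gene dhrs13l1 had 27.3 and 20.5, dhrs13a.3 had 9.57 and 6.06, and dhrs13b had 3.24 and 3.57. Of the 5 dhrs13 genes, dhrs13a.2 was the only one at least 2-fold apart. The gene dhrs12 had 8.08 in A and 8.90 in B.

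Related copies often differed in direction between the libraries. The symbols mark 25 genes as copies in 11 sets, and in 9 sets at least 2 copies passed the filter. Those copies all differed in the same direction between A and B in 2 sets, the pair akr1a1 and the 3 genes of aldh9a1, and in both directions in the other 7. In the aldh2 pair, at -0.06 and 0.01, the opposite signs rest on values that hardly differ. The pairs dhrs3 (-0.20 and 0.22) and rdh14 (-0.39 and 0.21) also stayed under 2-fold. The shared direction of akr1a1 (0.79 and 0.09) rests on 1 small difference. With 48.6% of all genes higher in A, unrelated genes would also split by direction, and how often was not computed. The widest gaps between the differences of copies were 1.91 for hsd17b12, 1.69 for dhrs13, 1.46 for adh8 and 1.396 for rdh10. Within the sets hsd17b12, dhrs13 and adh8, at least 1 copy was below 10 in both libraries, where differences depend most on the pseudocount. The rdh10 copies had like mean values, 16.3 and 18.6. Genes within 100 kb of each other on the chromosome formed 6 pairs, of which 3 differed in the same direction: rdh1 and dhrs9, aldh9a1a.1 and aldh9a1a.2, and akr7a3 and aldh4a1, which lie 92.5 kb apart on chromosome 11.

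**Figure D3:**
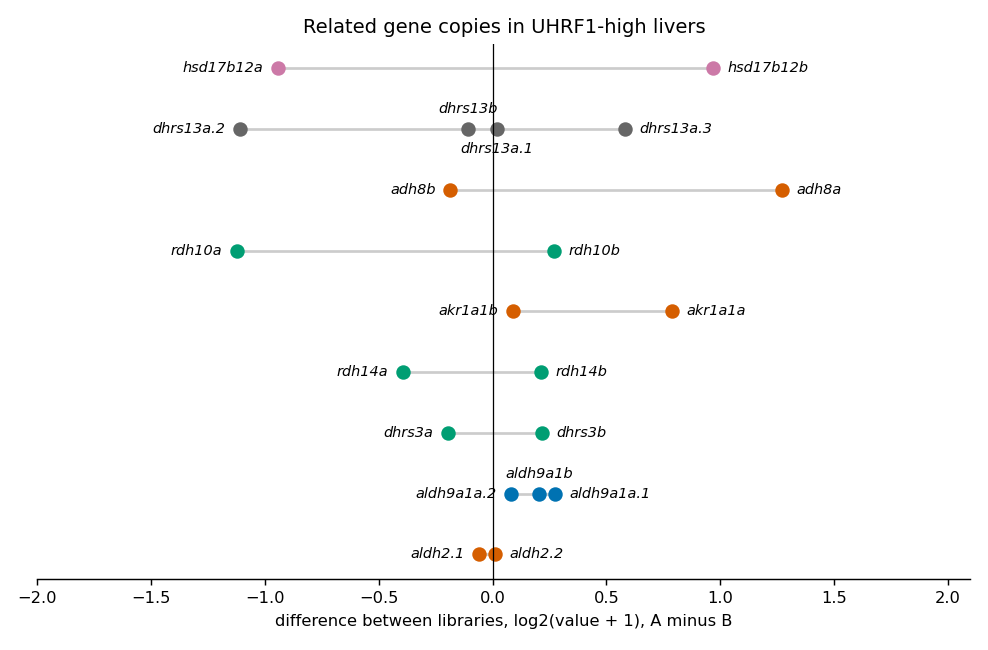
Difference between UHRF1-high libraries A and B (log2(value + 1), A minus B) for the 9 sets of related copies in which at least 2 genes reached a mean value of 1. Each line joins the copies of a set, with the widest gap at the top, and a line that crosses 0 joins copies that differed in opposite directions, as in 7 of the sets.

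The cofactor and partner genes gave a background for these enzymes. Of the 15 NAD and NADPH supply genes above the filter, 8 were higher in B and 7 (46.7%) in A. Of all genes, 48.6% were higher in A. The median of the list was -0.01, and the direction of that median turned under other settings. By at least 2-fold, 2 were higher in A (13.3%) and 3 in B (20%), against 7.07% and 6.83% of all genes. The cytosolic isocitrate dehydrogenase gene idh1 had 450 in A and 306 in B, while the mitochondrial idh2 had 59.3 and 148. The pentose phosphate gene pgd had 144 and 180, the malic enzyme gene me1 had 121 and 58.4, and haao, of NAD synthesis from tryptophan, had 68.8 and 29.8. Other NAD(P) oxidoreductases outside the named families had 34 genes above the filter. Of these, 22 (64.7%) were higher in A, against 48.6% of all genes, and 12 in B. At least 2-fold higher were 6 in A (17.6%) and 1 in B (2.94%), against 7.07% and 6.83% of all genes. The median of this list, 0.30, lay close to the 0.27 of the dehydrogenase and reductase genes, whose 2-fold share in A was 9.09%. The list was led by the malate dehydrogenase gene mdh1a (1426 and 1605), hadh (344 and 481) and ldhba (311 and 436). The gene cryz had the largest difference towards A (27.2 and 3.69), and the glycerol phosphate dehydrogenase gene gpd1a the one towards B (3.55 and 21.2). Of 7 measured genes on a list named for ethanol and acetate metabolism, 5 were higher in A (71.4%), against 48.6% of all genes. Only adhfe1 was at least 2-fold so (15.3 and 3.19), or 14.3%, against 7.07% of all genes. The catalase gene cat had 581 and 513, the cytochrome P450 gene cyp2y3 had 287 and 169, and esd had 109.6 and 109.4.

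**Figure D4:**
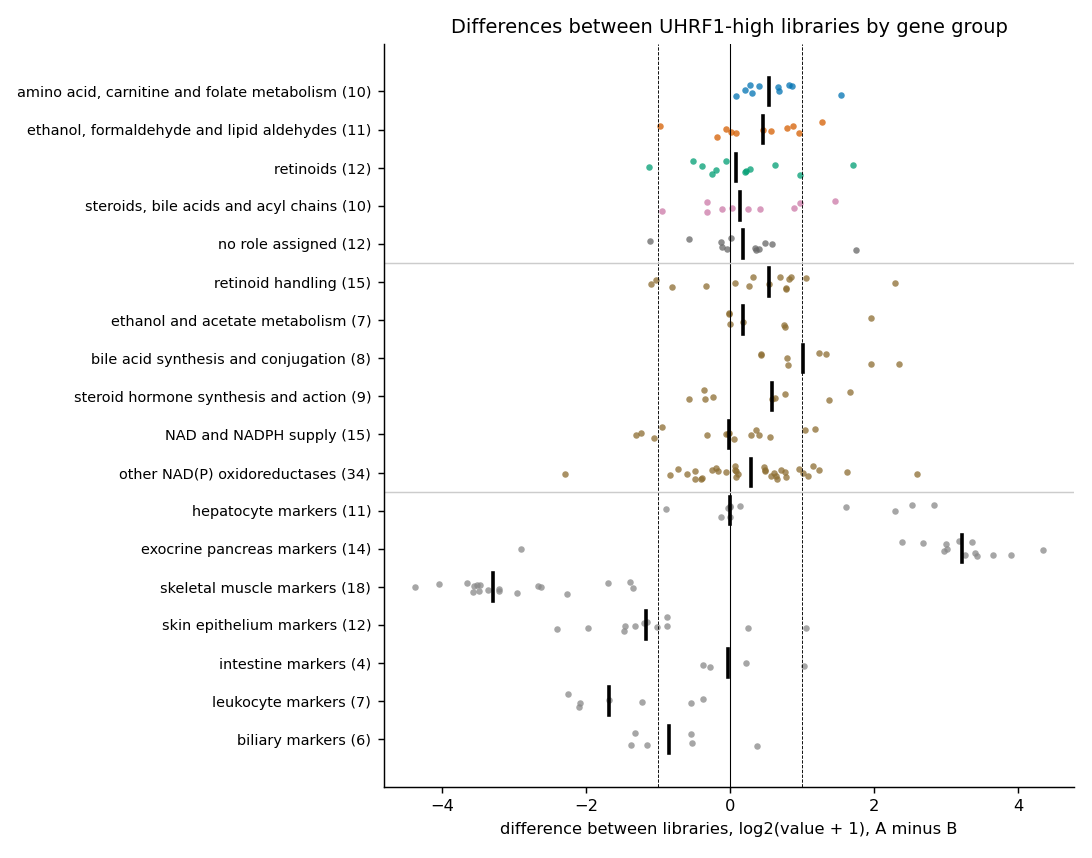
Differences between UHRF1-high libraries A and B (log2(value + 1), A minus B) for genes whose mean value reached 1, with the number of genes in parentheses and a black bar at each median. The top 5 rows are the role groups, the middle 6 the lists of partner genes and the bottom 7 the markers of cell types; exocrine pancreas and skeletal muscle markers lie farthest from 0, at 3.23 and -3.29.

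The 6 genes with a mean value under 1 were, besides aldh3a2b, dhrs11a, hsd17b3, hsd17b2, rdh5 and hsd17b1. The gene dhrs11a had 1.08 in A and 0.305 in B. The sex steroid genes hsd17b1, hsd17b2 and hsd17b3, for enzymes that act on oestrogens and androgens, lay at or near the lowest values. Of these, hsd17b3 had 0.487 in A with a listing of 0 in B, hsd17b2 had 0.183 and 0.0609, and hsd17b1 had the lowest value of A, 0.0203, with a listing of 0 in B. The gene rdh5, for a retinol dehydrogenase of the retinal pigment epithelium, also had the lowest value of A and 0.183 in B. No fold is given for these genes.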

How the data were processed

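Polyadenylated RNA of zebrafish livers was sequenced, and the labels name 4 libraries, 2 UHRF1-high and 2 mCherry. The deposited values are a signal per gene that the authors quantile-normalised, going by the table's name. CASAVA 1.7 and the build Zv9 (danRer7) come from the submitters' processing notes. How reads were counted, on which annotation and with which gene filter is not stated there. Depth is unknown, as are the unit before normalisation and what mult means at the end of the value column names, so how reads shared by related copies were treated is not known. The value columns of A and B were matched by name to the sample titles, and 0 other per-sample columns were left unused. Of the 61 symbols, 56 are current in the RefSeq table of GRCz12tu and 5 matched an older symbol. That table was used for names only. Coordinates are those of the deposited table, counted from 1.

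Differences are log2 with a pseudocount of 1, over genes whose mean value reached 1, computed with pandas 2.3.3 under Python 3.11.15 and checked on simulated data. No test was made. Members, role groups and lists were chosen with earlier results of these data known, and list genes were matched through older symbols. Named throughout were the members, and in each list up to 6 genes from the 3 highest and those at least 2-fold apart. One symbol that fits the name pattern is not reported here. Alternatives were other pseudocounts, other filters, centring, single libraries and, added after seeing the data, leaving out 3 genes of uncertain span.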

Additional observations from a re-analysis of the deposited data

How the results depend on the processing

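The median difference of the dehydrogenase and reductase genes stayed above 0 in each of the 6 alternatives, from 0.19 (pseudocount of 10) to 0.36 (minimum mean of 10). The counts at 2-fold did not hold as well: higher in A were 2 genes at a pseudocount of 10 and 2 at a minimum mean of 10 (hsd17b4 and rdh1 each time), against 5. Of all genes, 2.24% and 8.57% were then higher in A. Higher in B were 4 at a pseudocount of 0.1, 0 at one of 10 and 1 (rdh10a) at a minimum mean of 10, against 2. Of all genes, 10.2%, 1.60% and 6.38% were then higher in B. With a pseudocount of 10 the differences of dhrsx, adh8a, aldh5a1, dhrs13a.2 and rdh10a were 0.38, 0.28, 0.62, -0.28 and -0.72, under 2-fold. With one of 0.1, hsd17b12b, hsd11b3a, hsd17b12a and aldh3b1 came past it. The median of the retinol dehydrogenases turned to -0.051 without a filter and was 0.27 at a minimum mean of 10. That of the hydroxysteroid dehydrogenases was 0.093 without a filter and -0.047 without genes of overlapping or very short span, where hsd11b3a left the list. The NAD supply list turned to 0.020 without a filter, 0.048 at a minimum mean of 10 and 0.0069 when centred on all genes, and the 4 intestine markers turned to 0.031 with a pseudocount of 0.1. The median percentile was 78.5 to 79.4 in single libraries and 77.9 among genes above the filter. Leaving out 1 library leaves no difference to compute.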
